A study of Mus musculus with 12 samples.

Results

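The 44 genes described here encode the machinery of mitosis: the cyclins and kinases of mitotic entry, the spindle checkpoint, the motors and scaffolds of the spindle and midzone, and the proteins that compact and separate chromosomes. They were taken by symbol from a fixed list, and 44 of 44 were present in both deposited count tables, which held 13948 genes for the co-cultured cells and 35556 distinct symbols for the restimulated cells. RNA was sequenced from OT-I cells, mouse CD8+ T cells whose transgenic receptor is specific for an ovalbumin peptide, and each of 4 groups had 3 libraries. In the ATRA co-culture group, splenic cells were expanded with antibodies to CD3e and CD28 and IL-2 in all-trans retinoic acid at 5 ng/mL, kept for 5 days more, and held for 72 h at 1% oxygen with GL261, a mouse glioma line made to express ovalbumin. The CTRL co-culture group received DMSO in place of ATRA and was otherwise treated alike. The ATRA and CTRL restimulated groups went through the same steps and then 24 h with antibody to CD3e. Neither ATRA nor DMSO was added during the co-culture, and live CD45.2+ cells were sorted before RNA extraction. The labels give neither the age nor the sex of the mice. They also leave unsaid whether a group's libraries are separate animals or cultures, so a p-value here reflects library-to-library spread, which may be technical.

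Mitosis genes are transcribed in waves. In dividing cells most of them are low in G1, and rise in G2 and M under the activator complex of B-Myb, MuvB and FoxM1, while in resting cells the DREAM complex holds them low. In both settings the MuvB core reaches DNA at the cell cycle genes homology region, a short TTTGAA-like element near the start site that is often paired with CCAAT boxes bound by NF-Y. CD8+ T cells divide rapidly after receptor stimulation, and in bulk RNA fewer dividing cells and less RNA per dividing cell cannot be told apart.

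Promoter windows were examined because the members moved together in the comparisons that follow. RefSeq start sites of the GRCm38.p6 build were matched for 36 of the 44 members, and the window ran from 250 bases before to 50 after the start. Ect2 and Prc1 had an additional start site each, and a gene was counted where any of its windows held the motif. TTTGAA was present on either strand in 29 of these 36 members (80.6%), compared with 20.2% of the 27025 genes with a window. CCAAT, also on either strand, was present in 28 (77.8%), against 41.1% of all genes, and 2 or more copies were present in 18, against 13.3%. Both motifs stood in the same window for 25 members (69.4%) and for 7.97% of all genes, and the 2 motifs did not overlap. Median positions relative to the start were -15.0 bases for TTTGAA and -69.5 for CCAAT, with the sites of Ect2 and Prc1 counted in each of their windows. Examples are shown from 230 bases before the start through its first 30 transcribed bases, read toward the gene, with every TTTGAA or CCAAT in capitals, in either orientation (TTCAAA and ATTGG are the reverse). Ccnb2 (chr9:70421525-70421784 on the minus strand) is the member with the largest fold change after restimulation and Mki67 (chr7:135716350-135716609 on the minus strand) the gene of the Ki-67 proliferation marker. Top2a (chr11:99024160-99024419 on the minus strand) is a member with one of the smallest changes, and Cdc20 (chr4:118437314-118437573 on the minus strand) carries TTTGAA between a pair of CCAAT boxes. Birc5 (chr11:117849007-117849266 on the plus strand) has neither string in the window. A match to these letters is a description and no binding was measured.
Ccnb2: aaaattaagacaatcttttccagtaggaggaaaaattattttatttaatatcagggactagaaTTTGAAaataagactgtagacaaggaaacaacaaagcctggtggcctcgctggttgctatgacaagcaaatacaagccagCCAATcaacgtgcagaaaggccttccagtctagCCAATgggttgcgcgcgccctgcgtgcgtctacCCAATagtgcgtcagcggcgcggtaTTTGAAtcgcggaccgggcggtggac
Mki67: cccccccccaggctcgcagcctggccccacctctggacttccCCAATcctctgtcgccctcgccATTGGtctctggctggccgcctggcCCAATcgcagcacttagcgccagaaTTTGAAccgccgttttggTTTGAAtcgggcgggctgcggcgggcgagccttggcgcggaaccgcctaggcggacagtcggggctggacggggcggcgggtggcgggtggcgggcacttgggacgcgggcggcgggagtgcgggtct
Top2a: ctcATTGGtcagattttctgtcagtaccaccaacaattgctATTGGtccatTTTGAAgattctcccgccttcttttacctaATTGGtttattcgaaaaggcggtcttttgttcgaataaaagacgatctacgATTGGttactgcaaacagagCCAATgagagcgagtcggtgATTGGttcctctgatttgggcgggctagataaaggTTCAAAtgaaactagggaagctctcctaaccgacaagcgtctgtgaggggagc
Cdc20: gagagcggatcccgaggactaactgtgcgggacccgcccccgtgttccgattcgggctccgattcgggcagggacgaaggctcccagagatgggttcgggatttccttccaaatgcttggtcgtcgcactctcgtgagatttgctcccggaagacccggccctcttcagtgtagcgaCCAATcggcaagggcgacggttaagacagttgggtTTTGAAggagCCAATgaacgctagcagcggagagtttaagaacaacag
Birc5: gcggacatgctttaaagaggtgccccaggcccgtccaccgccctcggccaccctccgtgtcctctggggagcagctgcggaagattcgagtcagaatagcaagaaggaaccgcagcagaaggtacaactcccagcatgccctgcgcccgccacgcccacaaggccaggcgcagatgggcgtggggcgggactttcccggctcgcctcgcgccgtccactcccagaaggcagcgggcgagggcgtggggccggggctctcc

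Library totals were 23558244 to 26111497 counts after co-culture and 16288111 to 20115836 after restimulation, and the lowest count of any member in any library was 49, for Cdc25c. Levels are given in CPM, counts relative to the library total, scaled by TMM within each table. A pair of co-culture libraries stood apart. ATRA replicate 3 correlated at 0.948 and 0.962 with the other ATRA libraries (Pearson, log CPM across genes), which correlated at 0.99 with each other. It was the lowest of its group for 44 of 44 members, with a median ratio of the highest to the lowest library of 3.19. CTRL replicate 1 correlated at 0.978 and 0.98 with its companions and was the lowest CTRL library for 39 members, with a median ratio of 1.2. The CD8 chain genes were detected in every library, Cd8a at 305 to 363 CPM in ATRA and 263 to 375 CPM in CTRL co-cultured cells and at 149 to 153 CPM in ATRA and 152 to 190 CPM in CTRL restimulated cells. Cd8b1 was at 228 to 292 CPM in ATRA and 168 to 212 CPM in CTRL co-cultured cells and at 142 to 144 CPM in ATRA and 125 to 168 CPM in CTRL restimulated cells. Other T cell genes differed more after restimulation, in both directions. Lck was at 149 to 160 CPM in ATRA and 294 to 331 CPM in CTRL restimulated cells. Cd2 was at 266 to 277 CPM in ATRA and 137 to 146 CPM in CTRL restimulated cells.

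**Figure D1:**
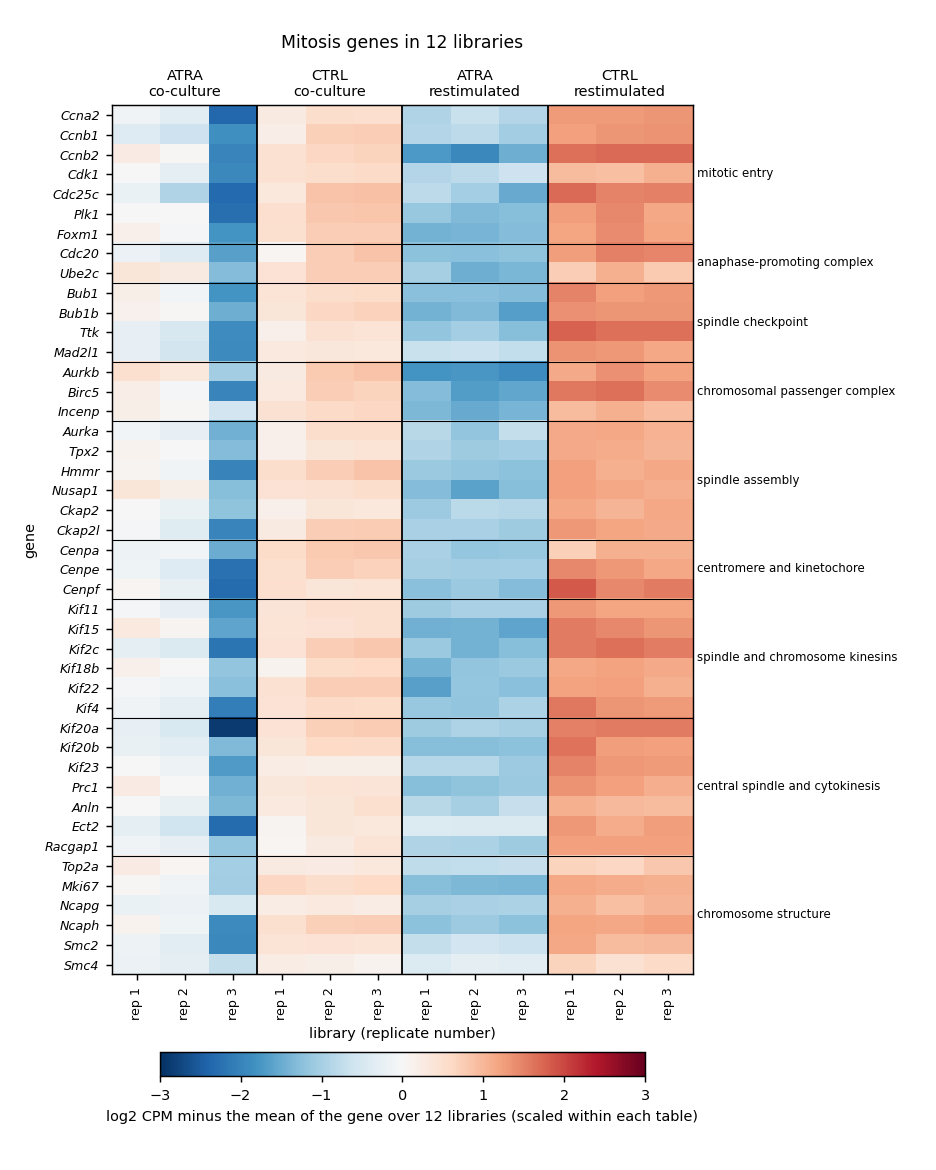
Each row is a gene and each column a library; colour is log2 CPM minus the mean of that gene over the 12 libraries, with genes ordered by role and levels scaled within each count table. Restimulated CTRL libraries are uniformly high and restimulated ATRA libraries uniformly low, and ATRA co-culture replicate 3 is the lowest of its group for all 44 genes.

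After restimulation, every mitosis gene was lower in ATRA cells than in CTRL cells. All 44 fell at an adjusted p below 0.05 and 0 rose, where 30.8% of the 12783 genes tested fell and 31.8% rose. The median log2 fold change was -2.39, against 0.02 over all genes tested, and the members ranged from -3.38 for Ccnb2 to -0.91 for Smc4. Of the 44, 36 were at least 4-fold lower and 43 at least 2-fold lower. ATRA and CTRL libraries were fully separated for 44 of 44 members, where 33.4% of all genes had every ATRA library below every CTRL library. Summed over the members, the level was 2850, 2880 and 2820 CPM in ATRA libraries and 13000, 12400 and 12300 CPM in CTRL libraries. Within each of the 3 batches that the labels give, the median log2 ratio of ATRA to CTRL was -2.41, -2.40 and -2.31, and all 44 members were below 0 in each.

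The genes of mitotic entry fell by a median log2 fold change of -2.53 (7 of 7 called). Ccnb2, which encodes the B2 cyclin partner of CDK1, was at 12.9, 11.2 and 15.5 CPM in ATRA libraries and at 135, 139 and 138 CPM in CTRL libraries. Its log2 fold change was -3.38 (SE 0.11, adjusted p = 3e-10), a 10.4-fold lower level in ATRA cells. All 3 ATRA libraries lay far below all 3 CTRL libraries. Ccnb1, the B1 cyclin that drives entry into mitosis, was at 101, 107 and 90 CPM in ATRA libraries and at 432, 462 and 470 CPM in CTRL libraries (log2 fold change -2.19, SE 0.08, adjusted p = 4.84e-10). Cdk1, the kinase both cyclins activate, was at 40.2, 42.8 and 48.1 CPM in ATRA libraries and at 142, 138 and 155 CPM in CTRL libraries (-1.73, SE 0.09, adjusted p = 8.27e-09). Its fold change was smaller than that of either B-type cyclin, a difference that was not tested, and its groups were as cleanly separated. Plk1, the polo-like kinase that acts from mitotic entry to cytokinesis, was at 30.8, 27.3 and 28 CPM in ATRA libraries and at 162, 185 and 152 CPM in CTRL libraries (-2.53, SE 0.09, adjusted p = 6.88e-10). Foxm1, the transcription factor that activates the late cell cycle genes, was at 15, 15.3 and 16.4 CPM in ATRA libraries and at 92.2, 108 and 91.3 CPM in CTRL libraries (-2.64, SE 0.10, adjusted p = 1.11e-09). Foxm1 was low in the same 3 libraries as the cyclins. Ccna2, the A2 cyclin of S phase and G2, changed by -2.11, and Cdc25c, the phosphatase that removes inhibitory phosphates from CDK1, by -2.64.

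The anaphase-promoting complex turns mitosis off by ubiquitinating cyclin B and securin. Its coactivator gene Cdc20 was at 23.2, 22.6 and 23.7 CPM in ATRA libraries and at 129, 154 and 150 CPM in CTRL libraries (log2 fold change -2.64, SE 0.09, adjusted p = 4.09e-10). Its ubiquitin-conjugating enzyme gene Ube2c changed by -2.14. The spindle checkpoint, which restrains Cdc20 until chromosomes are attached, fell for 4 of 4 genes, by -2.84 for the kinase Ttk, -2.80 for Bub1b, -2.60 for the kinase Bub1 and -1.95 for Mad2l1.

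The chromosomal passenger complex, which corrects faulty attachments and later directs cytokinesis, held the lowest median of the 9 roles, -3.05. Its kinase gene Aurkb was at 10.8, 11 and 10.1 CPM in ATRA libraries and at 82.2, 96.8 and 86.4 CPM in CTRL libraries (log2 fold change -3.05, SE 0.11, adjusted p = 4.46e-10). Birc5, which encodes survivin, was at 13.4, 10.3 and 11.1 CPM in ATRA libraries and at 98.2, 104 and 88.4 CPM in CTRL libraries (-3.06, SE 0.12, adjusted p = 1.14e-09). Both were about 8-fold lower by these fits, at 8.29-fold and 8.33-fold, and their groups were far apart. Incenp, the scaffold that binds Aurora B, changed by -2.40. Aurka, the related kinase of centrosomes and spindle poles, changed by -2.02, and its activator Tpx2 by -2.09.

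Motors and structural genes followed. The 6 spindle and chromosome kinesins changed by -2.91 for Kif15 to -2.22 for Kif11, the bipolar spindle motor. The 3 centromere and kinetochore genes changed by -2.83 for Cenpf, -2.33 for the kinetochore motor Cenpe and -2.04 for Cenpa, the centromeric histone H3 variant. The other spindle genes, Hmmr, Nusap1, Ckap2 and Ckap2l, changed by -2.56 to -2.03. Genes of the central spindle and cytokinesis ranged from -2.65 for Kif20b to -1.64 for Ect2, the RhoA exchange factor that starts furrow ingression. Ect2 was at 82.3, 80.7 and 80.5 CPM in ATRA libraries and at 267, 236 and 258 CPM in CTRL libraries (SE 0.07, adjusted p = 1.79e-09). It was thus among the 3 smallest changes while its groups remained apart.

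The chromosome structure genes had the smallest median change of the 9 roles, -1.82. Mki67, whose product coats mitotic chromosomes, was at 474, 452 and 440 CPM in ATRA libraries and at 2540, 2480 and 2380 CPM in CTRL libraries (log2 fold change -2.44, SE 0.06, adjusted p = 5.11e-11). Top2a, the topoisomerase that decatenates sister chromatids, was at 438, 449 and 459 CPM in ATRA libraries and at 1180, 1150 and 1310 CPM in CTRL libraries (-1.44, SE 0.06, adjusted p = 2.6e-09). Both genes were clearly lower in every ATRA library. Smc4, the core ATPase of condensin, was at 243, 265 and 253 CPM in ATRA libraries and at 508, 444 and 480 CPM in CTRL libraries (-0.91, SE 0.07, adjusted p = 2.42e-07). This was the smallest change, with no overlap, and its condensin partner Smc2 changed by -1.67. The non-SMC condensin I subunits changed more, by -1.96 for Ncapg and -2.37 for Ncaph.

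**Figure D2:**
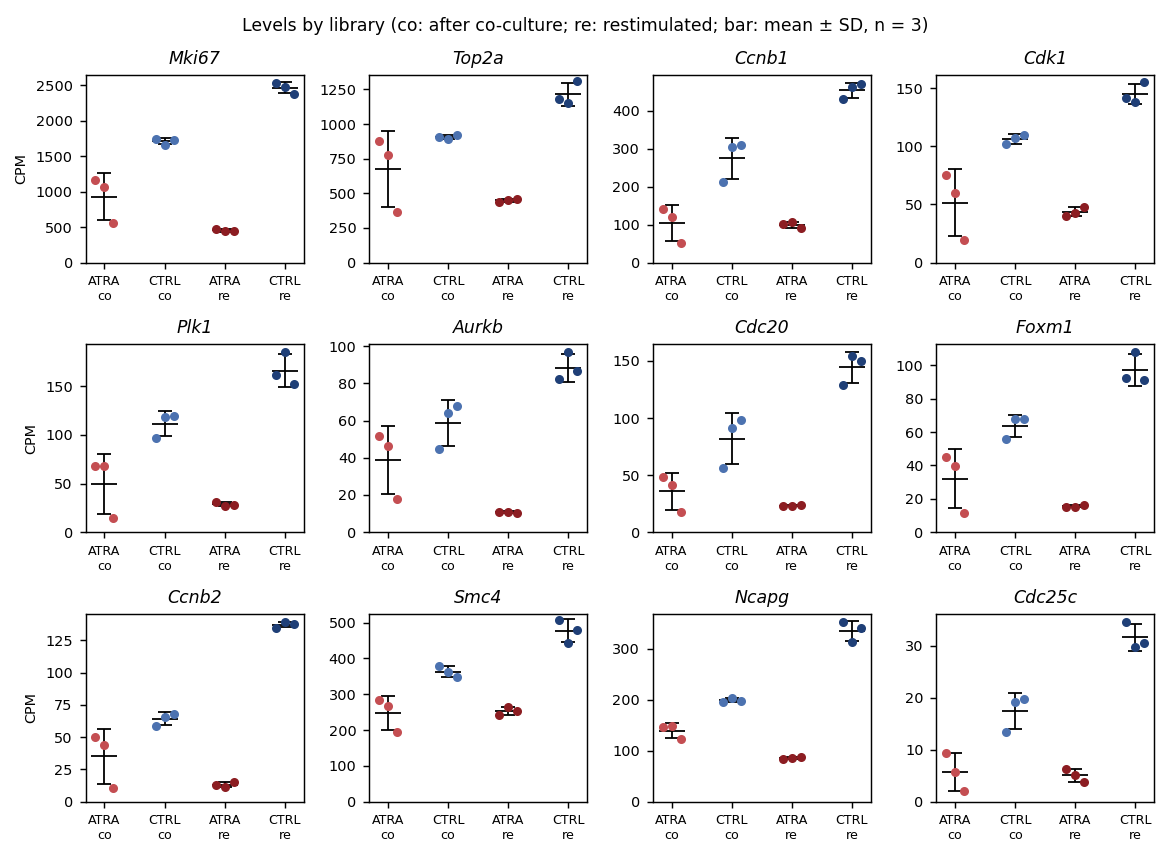
Level in CPM of 12 members in each library (dots), with the mean and SD of 3 libraries, for ATRA and CTRL cells after co-culture (co) and after restimulation (re). The restimulated groups are tight and apart for every gene shown, while the ATRA co-culture dots spread widely for most genes, least for Ncapg.

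After co-culture the mitosis genes were again lower in ATRA cells, by less and with a wide spread. All 44 had a fold change below 0, with a median log2 fold change of -0.95 (range -1.60 to -0.42) against 0.01 over all genes tested. At an adjusted p below 0.05, 9 of 44 members fell (20.5%) and 0 rose. Of the 12111 genes tested, 15.5% fell and 18.1% rose, so the share that fell is near the background. In 42 of 44 members (95.5%) every ATRA library was below every CTRL library, where 28.7% of all genes showed this, and the exceptions were Aurkb and Kif18b. The summed level of the 44 genes was 5780, 5150 and 2260 CPM in ATRA libraries and 7440, 7970 and 8120 CPM in CTRL libraries. The highest ATRA library was thus below the lowest CTRL library. Within batches, the median log2 ratio was -0.37 (42 members below 0), -0.76 (44) and -2.26 (44) for replicates 1, 2 and 3, the last holding ATRA replicate 3.

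The count of 9 depended strongly on the libraries and the model. Without ATRA replicate 3, 38 members fell and the median was -0.60, and without both that library and CTRL replicate 1, an alternative chosen after seeing the data, 43 fell. The count was 0 without CTRL replicate 2 or 3, 1 without ATRA replicate 2, 2 without CTRL replicate 1 and 13 without ATRA replicate 1. With the replicate block, 3 fell (Kif20b, Ncapg and Smc4). DESeq2 called 27 and a fit of all 12 libraries 32. The count over all genes moved too. It was 1883 lower in the main fit, 673 to 2859 with 1 library left out and 3965 without both libraries that stood apart. These jumps are therefore not particular to the mitosis genes.

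Ncapg, a condensin subunit, had the tightest values. It was at 147, 148 and 123 CPM in ATRA libraries and at 196, 204 and 197 CPM in CTRL libraries (log2 fold change -0.52, SE 0.10, adjusted p = 0.0121). Smc4 was at 284, 266 and 195 CPM in ATRA libraries and at 378, 362 and 349 CPM in CTRL libraries (-0.55, SE 0.15, adjusted p = 0.0336). The groups of both genes were apart, and both calls ended without CTRL replicate 2 (adjusted p = 0.0577 for Ncapg and 0.0998 for Smc4) or without CTRL replicate 3 (0.0574 and 0.0957). The Smc4 call also ended without CTRL replicate 1 (adjusted p = 0.0874) and without ATRA replicate 2 (0.0738). Mki67 was at 1170, 1070 and 557 CPM in ATRA libraries and at 1750, 1660 and 1730 CPM in CTRL libraries (-0.88, SE 0.27, adjusted p = 0.0453). The Mki67 call ended in 5 of 12 alternatives (adjusted p up to 0.124). Top2a was at 881, 779 and 368 CPM in ATRA libraries and at 906, 892 and 923 CPM in CTRL libraries (-0.42, SE 0.30, adjusted p = 0.3). For Top2a the ATRA replicate 1 value was only just below the lowest CTRL library, and no difference passed the threshold.

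Among the genes of mitotic entry, 2 of 7 fell (28.6%, where 15.5% of all genes did). Ccnb1 was at 142, 121 and 51.7 CPM in ATRA libraries and at 212, 304 and 309 CPM in CTRL libraries (log2 fold change -1.39, SE 0.37, adjusted p = 0.0293). Cdc25c was at 9.36, 5.72 and 2.12 CPM in ATRA libraries and at 13.4, 19.2 and 19.7 CPM in CTRL libraries (-1.60, SE 0.49, adjusted p = 0.0452). Both separated the groups, although replicate 3 was the lowest ATRA value by a wide margin. The Ccnb1 call ended in 4 of 12 alternatives (adjusted p up to 0.097) and the Cdc25c call in 5 (up to 0.13). Cdk1 was at 75.1, 60.2 and 19.5 CPM in ATRA libraries and at 102, 107 and 110 CPM in CTRL libraries (-1.04, SE 0.44, adjusted p = 0.105). Plk1 had -1.16 (SE 0.53, adjusted p = 0.13) and Foxm1 -0.99 (SE 0.45, adjusted p = 0.128), neither past the threshold. Foxm1 was at 45, 39.5 and 11.7 CPM in ATRA libraries and at 56.1, 67.7 and 67.6 CPM in CTRL libraries.

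Aurkb was the member whose groups overlapped most clearly, at 51.7, 46.4 and 18 CPM in ATRA libraries and at 44.5, 64.1 and 67.6 CPM in CTRL libraries (-0.60, SE 0.39, adjusted p = 0.254). CTRL replicate 1 was below ATRA replicates 1 and 2. Incenp fell (-0.64), a call that ended in 5 of 12 alternatives (adjusted p up to 0.133), and Birc5 did not pass (-0.93). Cdc20 was at 48.3, 41.2 and 17.6 CPM in ATRA libraries and at 56.3, 91.2 and 98.1 CPM in CTRL libraries (-1.20, SE 0.39, adjusted p = 0.055). None of the 4 spindle checkpoint genes passed, at -1.05 to -0.83, nor did any of the 6 spindle assembly genes, at -1.19 to -0.56. Kinesin-13 gene Kif2c, a microtubule depolymerase, had -1.42 (SE 0.45, adjusted p = 0.0514) and the midzone kinesin gene Kif20a -1.46 (SE 0.58, adjusted p = 0.0942). These 2 large values missed the threshold, whereas Kif22 (-1.04), Kif20b (-1.06) and Cenpa (-1.17) passed it. The calls of Kif22 and Cenpa ended in 5 of 12 alternatives each (adjusted p up to 0.117 and 0.122). That of Kif20b ended in 4 (up to 0.097). Kif2c in turn passed in 5 of 12 alternatives and Kif20a in 4, and differences between these genes were not tested.

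**Figure D3:**
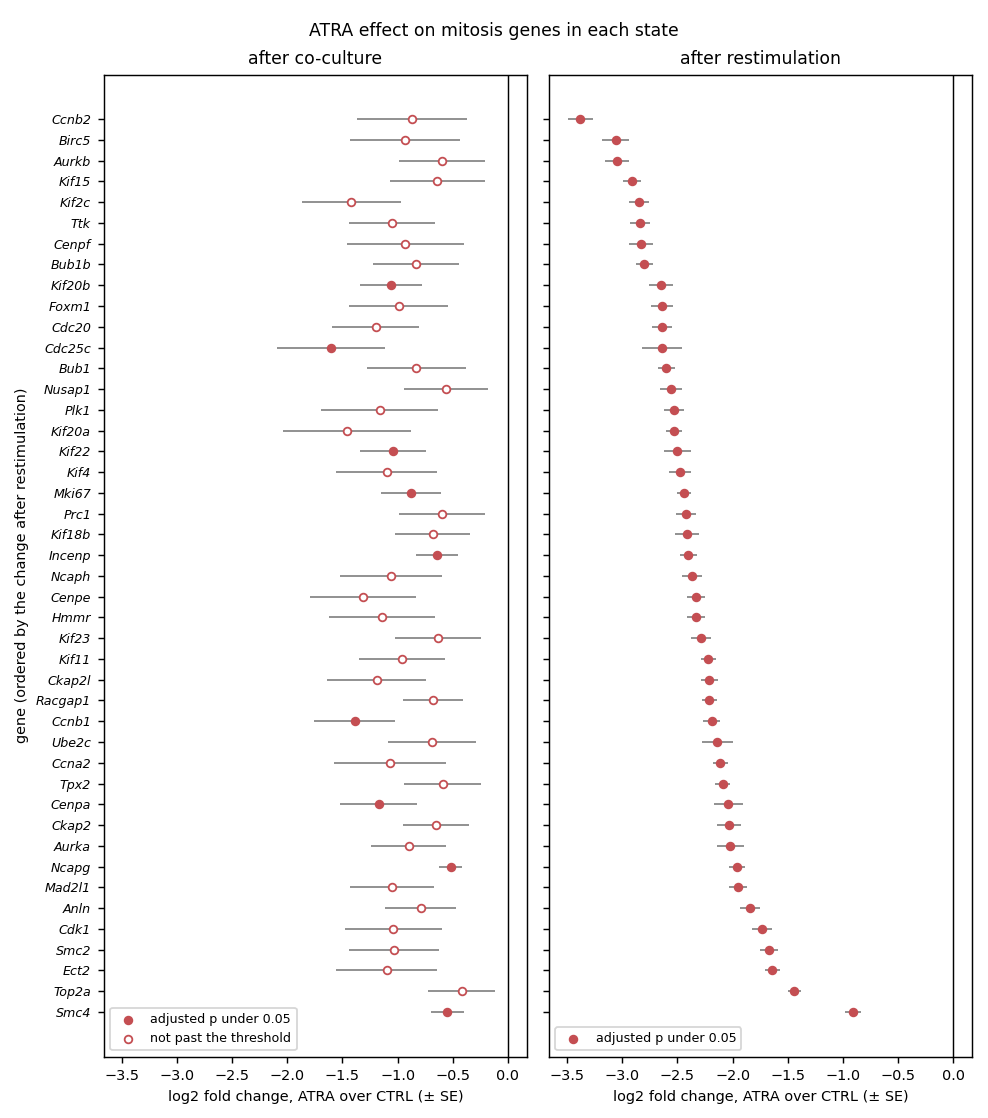
Log2 fold change of ATRA over CTRL with its SE for each member after co-culture (left) and after restimulation (right), filled where the adjusted p was below 0.05. Every value is below 0 in both panels, 9 are filled on the left and 44 on the right, and each gene lies further from 0 on the right.

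The difference between the ATRA effects was tested as an interaction over all 12 libraries. The fall was larger after restimulation for 44 of 44 members by value, and 30 (68.2%) passed the test in that direction, where 25.5% of 12364 genes did so. The median interaction on the log2 scale was -1.43, against -0.07 over all genes. Ccnb2 (-2.50, SE 0.55, adjusted p = 0.0028), Aurkb (-2.45, SE 0.42, adjusted p = 0.000604) and Kif15 (-2.27, SE 0.46, adjusted p = 0.00177) had the largest differences. Those of Mki67 (-1.56, SE 0.28, adjusted p = 0.000608), Foxm1 (-1.64, SE 0.48, adjusted p = 0.015) and Cdc20 (-1.44, SE 0.42, adjusted p = 0.0141) also passed. Top2a passed at -1.01 (SE 0.32, adjusted p = 0.0205) but not without ATRA co-culture replicate 2 (adjusted p = 0.0503). The 14 genes that did not pass included Ccnb1 (-0.80, SE 0.39, adjusted p = 0.111), Cdk1 (-0.68, SE 0.46, adjusted p = 0.246), Plk1 (-1.37, SE 0.57, adjusted p = 0.0638) and the 3 smallest, Smc4 (-0.36, SE 0.16, adjusted p = 0.0837), Ect2 (-0.54, SE 0.48, adjusted p = 0.372) and Smc2 (-0.63, SE 0.44, adjusted p = 0.253). The chromosomal passenger complex and the 6 kinesins of spindle and chromosomes passed for all their members (3 of 3 and 6 of 6), mitotic entry for 2 of 7. Of these kinesin calls, that of Kif4 ended in 11 of 17 alternatives (adjusted p up to 0.11), that of Kif2c in 7 (up to 0.087) and that of Kif11 in 6 (up to 0.0747). Leaving out 1 library at a time gave 22 to 44 members, with 44 without ATRA co-culture replicate 3. Restimulated and co-cultured libraries come from different batches and separate tables, so restimulation, batch set and table cannot be told apart. Across the 44 genes, the 2 fold changes had a Pearson r of 0.20 and a Spearman rho of 0.15, a description over genes that share libraries.

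Restimulated cells were also compared with co-cultured cells of the same treatment. In CTRL cells all 44 members were above 0 (median log2 fold change 0.66 against 0.02 over all genes), and 7 rose (15.9%), where 15.9% of all genes rose, so the count was at the background. The 7 were Ttk (1.25, SE 0.29, adjusted p = 0.00678), Kif23 (1.07, SE 0.30, adjusted p = 0.0186), Racgap1, Kif20b, Mad2l1, Ckap2 and Ncapg. The Mad2l1 call ended in 10 of 17 alternatives, that of Ckap2 in 5 and those of Kif20b and Kif23 in 3 each. Cenpf, at 1.09, was the second highest and did not pass (SE 0.40, adjusted p = 0.0566), and the lowest were Ube2c (0.13, SE 0.31, adjusted p = 0.781), Cenpa (0.14, SE 0.26, adjusted p = 0.722) and Smc4 (0.30, SE 0.12, adjusted p = 0.0679). Mki67 (0.43, SE 0.19, adjusted p = 0.111), Top2a (0.32, SE 0.22, adjusted p = 0.299), Ccnb1 (0.63, SE 0.27, adjusted p = 0.103), Cdk1 (0.35, SE 0.33, adjusted p = 0.447), Plk1 (0.48, SE 0.39, adjusted p = 0.38), Aurkb (0.49, SE 0.29, adjusted p = 0.219), Cdc20 (0.72, SE 0.29, adjusted p = 0.0811) and Foxm1 (0.51, SE 0.34, adjusted p = 0.272) did not pass. Leaving out 1 library gave 3 to 42 members, 42 without ATRA co-culture replicate 3. That library is not in the CTRL groups but shares the fit with them, and how it acts on the count was not tested.

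In ATRA cells the values lay mostly on the other side of 0. Of the 44 members 43 were below 0 (median -0.73 against -0.03 over all genes), and 22 of 44 fell, where 31.5% of all genes fell. The lowest were Aurkb (-1.96, SE 0.31, adjusted p = 0.000212), Ccnb2 (-1.51, SE 0.40, adjusted p = 0.0061) and Incenp (-1.43, SE 0.15, adjusted p = 6.17e-06). The highest were Ect2 (0.31, SE 0.34, adjusted p = 0.442), Mad2l1 (-0.04, SE 0.29, adjusted p = 0.911) and Smc4 (-0.07, SE 0.12, adjusted p = 0.629), none past the threshold. Mki67 (-1.13, SE 0.20, adjusted p = 0.000352), Top2a (-0.69, SE 0.23, adjusted p = 0.0194) and Foxm1 (-1.14, SE 0.35, adjusted p = 0.0144) also fell. The Top2a call ended in 4 of 17 alternatives (adjusted p up to 0.0868) and the Foxm1 call in 2 (up to 0.0799), each of which left out 1 ATRA library. Cdc20 (-0.72, SE 0.30, adjusted p = 0.0553), Plk1 (-0.89, SE 0.41, adjusted p = 0.0759), Ccnb1 (-0.17, SE 0.28, adjusted p = 0.611) and Cdk1 (-0.33, SE 0.33, adjusted p = 0.4) did not pass. The count was 12 without ATRA co-culture replicate 1, 13 without replicate 2 and 43 without replicate 3. For 41 of 44 members the group means ran, highest to lowest, from restimulated CTRL through co-cultured CTRL and co-cultured ATRA to restimulated ATRA cells, and for the other 3 the ATRA groups changed places. Levels were scaled within each table, so this order is a description.

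The deposited TPM values, which scale for transcript length and so allow genes to be ranked against each other, were available for the restimulated cells. Summed over the 44 members they were 1380 to 1470 TPM in ATRA libraries and 5860 to 6540 TPM in CTRL libraries. A median member stood in ATRA cells at 19.2% of its CTRL level, and all 44 had every ATRA value below every CTRL value. In CTRL cells the most abundant was Ccnb1 (415 ± 19.6 TPM, SD, n = 3), followed by Top2a (347 ± 17.4 TPM) and Ect2 (328 ± 32 TPM). The neighbours Ect2, Ccna2 (327 ± 9.83 TPM) and Cdk1 (322 ± 37.5 TPM) did not differ beyond their spread. In ATRA cells Smc4 led (158 ± 10.2 TPM), ahead of Top2a (119 ± 3.92 TPM) and Ccnb1 (97.1 ± 10.2 TPM). Cdc25c was lowest in both groups, at 3.62 ± 1.09 TPM in ATRA and 21.3 ± 2.88 TPM in CTRL cells. Ccnb2 kept the smallest share of its CTRL level, 9.28% (11.3 ± 1.67 TPM in ATRA and 121 ± 3.84 TPM in CTRL cells), and Smc4 the largest, 54.1%. Among ATRA values Kif22 varied most in relation to its mean, at 11 to 44.6 TPM in ATRA and 84.4 to 119 TPM in CTRL cells. Across members, the levels in ATRA and CTRL cells had a Spearman rho of 0.93, a description over 44 genes that share libraries.

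**Figure D4:**
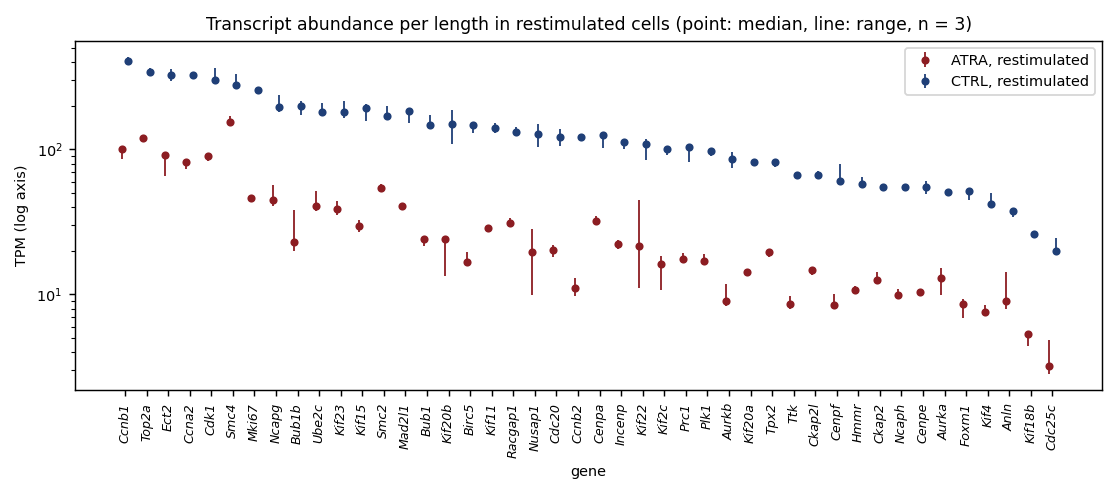
TPM of each member in restimulated ATRA and CTRL cells on a log axis, genes ordered by mean CTRL level; points are medians and lines the range of 3 libraries. Every gene lies lower in ATRA cells, with Ccnb2 widest apart (9.28% of the CTRL mean) and Smc4 closest (54.1%).

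Further genes of the same process were described from a list of 108 other mitosis genes, such as kinetochore, condensin and anaphase-promoting complex subunits. After restimulation 95 of 107 measured genes were lower and 1 was higher in ATRA cells (88.8% lower, where 30.8% of all genes were; median log2 fold change -1.91). Among those lower were Aspm (43.8, 43.9 and 43.7 CPM in ATRA and 434, 373 and 400 CPM in CTRL libraries), the spindle pole gene of microcephaly, Espl1, which encodes separase, and the condensin gene Ncapd2. Their log2 fold changes were -3.20, -3.19 and -2.26. After co-culture 25 of 107 were lower (23.4%, where 15.5% of all genes were) and 2 higher (1.87%, where 18.1% were; median -0.83), and the 3 with the smallest p were Bora (-1.29), Mis12 (-0.93) and Psrc1, which was higher in ATRA cells (1.56). Psrc1 was at 91.6, 102 and 129 CPM in ATRA and at 48.1, 30.1 and 31.3 CPM in CTRL libraries, apart from each other and opposite to the 44 members.

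Genes of the G1/S transition and DNA replication moved the same way after restimulation, when 49 of 53 were lower (92.5%, where 30.8% of all genes were) and 1 higher in ATRA cells (median -1.68). They included the polymerase gene Pole (-2.33), the helicase subunit gene Mcm6 (-1.83) and the maintenance methyltransferase gene Dnmt1 (-1.79). After co-culture 10 of 53 were lower (18.9%), a share near the 15.5% of all genes, and 2 were higher (3.77%, where 18.1% of all genes were; median -0.65), with Ccne1 (-0.97) and Prim1 (-0.80) among those lower and the D-type cyclin gene Ccnd3 (0.83) among those higher.

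Inhibitors of cyclin-dependent kinases and repressors of mitosis genes did not move as 1 block. After co-culture 5 of 20 were higher (where 18.1% of all genes were) and 4 lower (20.0%, where 15.5% were) in ATRA cells. The 3 with the smallest p were Cdkn1a (0.98), which encodes the inhibitor p21, Cdkn1b (1.49), which encodes p27, and Rb1 (0.86). After restimulation 5 of 20 were higher (where 31.8% of all genes were) and 11 lower (55.0%, where 30.8% were). Cdkn1a was at 106, 114 and 120 CPM in ATRA and at 26.3, 29.8 and 33.8 CPM in CTRL libraries (log2 fold change 1.92). It was higher in every ATRA library, while E2f8 (-2.29), an atypical E2F repressor, and Rbl1 (-1.63), which encodes the pocket protein p107, were lower.

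Markers of other cells were read beside these results, as the sort kept live CD45.2+ cells. The 18 glioma markers summed to 81 to 91.3 CPM in ATRA and 125 to 163 CPM in CTRL co-cultured cells (10 of 18 listed in that table), and to 83.9 to 90.5 CPM in ATRA and 90.8 to 101 CPM in CTRL restimulated cells. Axl held 31.2 to 59.4 CPM of this in ATRA and 95.3 to 121 CPM in CTRL co-cultured cells, and 75.2 to 81.5 CPM in ATRA and 70.2 to 75 CPM in CTRL restimulated cells. Igfbp7 was at 0.302 to 0.663 CPM in ATRA and 23.7 to 38.4 CPM in CTRL co-cultured cells, and at 1.46 to 2.07 CPM in ATRA and 13.3 to 23.3 CPM in CTRL restimulated cells. Loxl2 went the other way after co-culture, at 27.8 to 39.8 CPM in ATRA and 2.27 to 4.41 CPM in CTRL cells, and was at 3.11 to 3.3 CPM in ATRA and 1.07 to 1.89 CPM in CTRL restimulated cells. Gfap and Olig2 were at 0 in all 6 restimulated libraries, and Nes was at most 0.795 CPM in any library. Dendritic cell markers summed to 94.4 to 205 CPM in ATRA and 39.4 to 41.2 CPM in CTRL co-cultured cells and to 88.2 to 88.8 CPM in ATRA and 44.2 to 86 CPM in CTRL restimulated cells. H2-Ab1 held most of the co-culture sum, and the 205 CPM was that of ATRA replicate 3. Zbtb46 went the other way, at 1.21 to 2.22 CPM in ATRA and 8 to 12.7 CPM in CTRL co-cultured cells. H2-Aa overlapped, at 0.337 to 1.04 CPM in ATRA and 0.508 to 0.625 CPM in CTRL co-cultured cells. Of 4 dendritic cell markers tested after co-culture, 1 was higher and 1 lower in ATRA cells. After restimulation Itgax was at 67.3 to 69 CPM in ATRA and 16.8 to 52 CPM in CTRL cells. Clec9a, Xcr1, Siglech and Cd209a were under 1 CPM in all 6 restimulated libraries. Monocyte and macrophage markers summed to 19.9 to 24.2 CPM in ATRA and 12.3 to 13.4 CPM in CTRL co-cultured cells and to 23.3 to 24.2 CPM in ATRA and 11.6 to 17 CPM in CTRL restimulated cells, where Csf1r and Fcgr1 were at 0 in all 6 libraries. Most of each monocyte sum was Cd68, at 17.3 to 22.7 CPM in ATRA and 11.1 to 12 CPM in CTRL co-cultured cells. Cd14 went the other way, at 0.0841 to 0.546 CPM in ATRA and 1.08 to 1.25 CPM in CTRL co-cultured cells. Of 3 such markers tested after co-culture, 2 were higher and 1 lower in ATRA cells. Natural killer markers summed to 31 to 139 CPM in ATRA and 217 to 312 CPM in CTRL co-cultured cells, and to 36.5 to 45.2 CPM in ATRA and 125 to 158 CPM in CTRL restimulated cells. Klrk1, which activated CD8 T cells also express, was at 21.4 to 127 CPM in ATRA and 180 to 270 CPM in CTRL co-cultured cells, lowest in ATRA replicate 3. B cell markers summed to 4.87 to 10.4 CPM in ATRA and 7.19 to 16.6 CPM in CTRL co-cultured cells, and to 13.7 to 14.1 CPM in ATRA and 4.15 to 5.27 CPM in CTRL restimulated cells, where 5 of 5 tested were higher in ATRA cells. Among these, Ms4a1 was at 2.18 to 3.21 CPM in ATRA restimulated cells and at 0 in all 3 CTRL restimulated libraries. Ebf1 held most of the CTRL co-culture sum, at 5.47 to 15.6 CPM, and was at 1.29 to 3.54 CPM in ATRA co-cultured cells. Cd79b went the other way, at 3.27 to 4.88 CPM in ATRA and 0.711 to 1.36 CPM in CTRL co-cultured cells. Of 2 B cell markers tested after co-culture, 1 was higher and 1 lower in ATRA cells. CD4 T cell markers summed to 74.4 to 77.6 CPM in ATRA and 40.7 to 46.5 CPM in CTRL co-cultured cells, and to 23.7 to 26.5 CPM in ATRA and 19.2 to 25 CPM in CTRL restimulated cells. Most of this was Zbtb7b, and Cd4 itself was at most 1.22 CPM in any library. Erythroid markers reached at most 1.05 CPM in any library. The part of these cells in the mitosis gene results was not tested.

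Near-identical copies were checked for the members. The pseudogene symbol Ccnb1-ps held 0 to 16 counts in any library, where Ccnb1 held 1197 to 8744, and Kif4-ps held 0 in all 6 restimulated libraries. How reads shared with such copies were assigned is not given in the sources used here.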

How the data were processed

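RNA of 12 libraries was prepared with a stranded total RNA kit. The authors deposited whole-number counts per gene symbol, 1 table per state, and TPM values for the restimulated state. The tools named in the submitters' processing notes are STAR 2.7.11b, cutadapt 5.0, DESeq2 1.42.1 and Salmon 1.10.3, and the build is mm39. What each tool did, the gene annotation and the strand setting are not given in the sources used. The smallest row sum in the co-culture table was 10. In the restimulated table, 32 of 35588 rows repeated a symbol, and the row with the largest total was kept. The TPM headings show treatment but no library, so those values were used unpaired.

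Counts were fitted with edgeR 4.0.16 in R 4.3.3 (TMM, filterByExpr by group, robust quasi-likelihood test, Benjamini-Hochberg adjustment over all tested genes, threshold 0.05) on 6 libraries per state, and on all 12 libraries and the 13625 shared symbols for the interaction and for the comparisons of states. The SE was derived from the quasi-likelihood F. Alternatives were RLE scaling, no filter on low counts, DESeq2 1.42.0, a replicate block, all 12 libraries in one fit, and leaving out each library. The script was tested on simulated data, in which false calls made up 2.75% to 6.64% of the genes called, depending on the comparison. There every gene had the same spread and no library stood apart, unlike the co-culture libraries. The simulation could thus not show how such a library affects the calls.

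Replicate numbers pair ATRA and CTRL libraries through the batch in the labels. The pairs' deviations from the group means had correlations of 0.13, -0.06 and 0.07 after co-culture and -0.03, -0.10 and 0.04 after restimulation. Within groups, chi-square divided by degrees of freedom was at least 3.8 for any pair of libraries, so no pair differed by sampling noise alone.

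Full statistics go to the 3 highest and 3 lowest members per comparison and to Mki67, Top2a, Ccnb1, Cdk1, Plk1, Aurkb, Cdc20 and Foxm1; of other lists, the called genes with the 3 smallest p. The members and lists were chosen with earlier results of these data known.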

Additional observations from a re-analysis of the deposited data

Results flagged for a closer look

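The ATRA effect differed between the restimulated and the co-cultured state for 30 of the 44 mitosis genes by the interaction test of edgeR (adjusted p below 0.05), each with a larger fall after restimulation. Of all 12364 genes tested, 3153 (25.5%) passed in this direction and 2924 in the other. Among the named genes, the interaction on the log2 scale was -2.50 for Ccnb2, -2.45 for Aurkb, -2.27 for Kif15, -1.64 for Foxm1, -1.56 for Mki67, -1.44 for Cdc20 and -1.01 for Top2a. As given above, the Top2a call ended without ATRA co-culture replicate 2. State, batch set and count table cannot be told apart in this design.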

How the results depend on the processing

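After restimulation, 44 members were lower in every alternative tried, and the median log2 fold change stayed between -2.42 and -2.35 with any library left out. After co-culture, the 9 members that fell became 27 with DESeq2, 3 with the replicate block, 32 with all 12 libraries in one fit, 0 to 38 with 1 library left out, and 43 without both libraries that stood apart. All genes lower, 1883, became 1231 with the replicate block, 2884 with all 12 libraries, 673 to 2859 with 1 library left out and 3965 without both; all genes higher, 2188, became 940 to 2758 with 1 library left out and 4015 without both. The co-culture median was -0.60 to -1.25 with 1 library left out.

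Members that differed between the states, 30 in the main fit (where 25.5% of all genes passed in that direction), numbered 22 to 44 with 1 library left out. They were 25 with the replicate block and 32 with DESeq2. In CTRL cells the 7 members that rose became 14 with DESeq2, 3 to 42 with 1 library left out and 42 without both, and all genes higher 1251 to 2858 with 1 library left out. In ATRA cells the 22 that fell (where 31.5% of all genes fell in the main fit) became 12 to 43 with 1 library left out and 43 without both. For the interaction and for ATRA cells, counts over all genes in these alternatives are not set beside those of the members. Whether such shifts are particular to the members was not tested. Directions turned only in restimulated against co-cultured ATRA cells. With 1 library left out, log2 fold changes ran from -0.70 to 0.10 for Ccna2, -0.49 to 0.10 for Ccnb1, -0.72 to 0.03 for Cdk1, -0.67 to 0.26 for Cdc25c, -0.39 to 0.29 for Mad2l1, -0.74 to 0.11 for Kif20a, -0.49 to 0.17 for Smc2 and -0.21 to 0.03 for Smc4. Each low end was without ATRA co-culture replicate 3 and each high end without replicate 1. Mad2l1 was 0.03 with the replicate block. Ect2 ran from -0.08 without replicate 3 to 0.69 without replicate 1, and was -0.09 without both libraries. None of the genes that turned had passed the threshold. The cause was not tested. Cdc25c, with 49 counts in 1 library, has the least depth.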
